A study of Homo sapiens with 14 samples.

Results

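FLI1 was profiled by CUT&RUN in 4 libraries of TC-32 cells, and the 4 peak lists were compared here at the regions that all of them contained. TC-32 is an established Ewing sarcoma cell line that carries the EWSR1::FLI1 fusion. The series holds 14 libraries of untreated TC-32 cells, all labelled WT (wild type): FLI1 and IgG libraries in sets named A and B, H3K27ac libraries in set A, and H3K9me3 and H3K27me3 libraries in set B. The groups compared were FLI1 set A (replicates 1 and 2) and FLI1 set B (replicates 1 and 2), all made with one antibody to FLI1 from cells grown in RPMI medium with fetal bovine serum and given no treatment. The labels do not say what the letters A and B stand for, nor whether replicates came from separate cultures, so the p-values below measure only the spread between these 4 libraries. Each set also has its own IgG controls, and the set, its controls and anything else that differed between the sets cannot be told apart. An antibody to FLI1 does not by itself separate the fusion from FLI1 protein.

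Merging the 4 lists on the 22 autosomes and X gave 55089 regions, of which 16165 (29.3%) shared at least 1 base with a peak of every list. The lists held 35210 and 40590 peaks in set A against 38221 and 29339 peaks in set B. A further 6306 regions were in 3 lists, most often without set B replicate 2 (2396 regions). For each shared region, strength was the highest deposited fold over the IgG control and width was the number of bases covered by peaks. Both were ranked within each library and written as percentiles from 0 (weakest or narrowest) to 100. The shift of a region is its mean percentile in set A minus that in set B, in points. The shared regions had 8869 nearest genes, and 5832 of those genes had 1 region each. The lists give no read totals, so the depth behind each value is unknown.

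As background, EWSR1::FLI1 keeps the DNA-binding ETS domain of FLI1, which recognises a GGAA core, and joins it to the activating part of EWSR1. The fusion is known for binding tandem GGAA repeats (microsatellites) far from genes, where it can open chromatin and form new enhancers, as well as single ETS sites that other ETS factors share, many of them in promoters. H3K27ac marks active promoters and enhancers, H3K9me3 marks constitutive heterochromatin and H3K27me3 marks Polycomb-repressed chromatin.

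The following sequences come from shared regions with and without a tandem GGAA repeat. They are the plus strand of hg38, in lower case, with every GGAA and its reverse complement TTCC in capitals. The first group holds 150 bases around the longest repeat within 250 bp of a summit, for 7 shared regions. Of these, 2 were at known fusion targets, and 1 was picked as most alike across libraries among the 100 strongest regions. Another 2 were of those with the largest strength shift toward set A among repeat regions. The last 2 were repeat regions among the 6 largest width shifts toward set A.
NR0B1 upstream, chrX:30310705-30310854: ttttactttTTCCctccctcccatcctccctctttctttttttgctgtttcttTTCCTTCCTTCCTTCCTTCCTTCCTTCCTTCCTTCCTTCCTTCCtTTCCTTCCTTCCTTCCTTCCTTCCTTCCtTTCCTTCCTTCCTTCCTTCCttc
CCND1 upstream, chr11:69622110-69622259: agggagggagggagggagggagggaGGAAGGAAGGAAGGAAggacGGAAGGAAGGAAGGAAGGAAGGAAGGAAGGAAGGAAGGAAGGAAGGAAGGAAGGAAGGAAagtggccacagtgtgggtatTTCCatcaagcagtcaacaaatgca
ARG1 upstream, chr6:131383661-131383810: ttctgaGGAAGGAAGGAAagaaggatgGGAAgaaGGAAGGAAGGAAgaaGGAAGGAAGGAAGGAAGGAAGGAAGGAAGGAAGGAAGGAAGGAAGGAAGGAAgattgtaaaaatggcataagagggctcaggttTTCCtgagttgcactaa
RNF182 upstream, chr6:13907834-13907983: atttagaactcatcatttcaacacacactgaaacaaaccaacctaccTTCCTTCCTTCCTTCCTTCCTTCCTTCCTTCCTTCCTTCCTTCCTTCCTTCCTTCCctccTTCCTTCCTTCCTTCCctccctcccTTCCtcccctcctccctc
BCKDHB downstream, chr6:80872789-80872938: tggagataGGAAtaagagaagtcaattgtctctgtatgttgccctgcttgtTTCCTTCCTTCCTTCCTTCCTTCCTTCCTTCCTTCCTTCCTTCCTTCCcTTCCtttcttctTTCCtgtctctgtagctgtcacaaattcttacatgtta
SERF1A far upstream, chr5:70582912-70583061: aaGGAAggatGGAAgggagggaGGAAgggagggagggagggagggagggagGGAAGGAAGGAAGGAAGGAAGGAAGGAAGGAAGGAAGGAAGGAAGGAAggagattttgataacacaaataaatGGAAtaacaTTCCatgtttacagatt
SERF1A nearer upstream, chr5:70722593-70722742: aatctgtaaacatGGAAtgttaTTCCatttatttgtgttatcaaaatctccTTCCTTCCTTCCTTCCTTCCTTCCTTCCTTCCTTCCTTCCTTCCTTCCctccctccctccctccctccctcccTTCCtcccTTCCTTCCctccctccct
The longest unbroken runs within 250 bp of a summit were 11 units at NR0B1, 15 at CCND1, 13 at ARG1, 14 at RNF182, 12 at BCKDHB and 12 at each SERF1A region. The SERF1A windows share a stretch of 133 bases when one is read as its reverse complement, and their starts lie 139681 bp apart, so these 2 regions are copies of one another in opposite directions and not independent. The second group holds 200 bases at the summit of 3 regions without such a repeat. TMSB10 and MAT2B had the 2 largest strength shifts toward set A, and PEX10 was among the 6 largest toward set B.
TMSB10 start, chr2:84905250-84905449: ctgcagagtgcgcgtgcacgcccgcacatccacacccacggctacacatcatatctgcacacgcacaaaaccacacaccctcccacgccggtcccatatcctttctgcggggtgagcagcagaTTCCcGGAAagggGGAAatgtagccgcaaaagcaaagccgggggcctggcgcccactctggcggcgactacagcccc
MAT2B downstream, chr5:163624713-163624912: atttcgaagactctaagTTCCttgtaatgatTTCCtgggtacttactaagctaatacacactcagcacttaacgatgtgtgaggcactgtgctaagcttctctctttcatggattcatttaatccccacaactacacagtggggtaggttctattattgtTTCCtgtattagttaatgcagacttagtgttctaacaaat
PEX10 intron, chr1:2412719-2412918: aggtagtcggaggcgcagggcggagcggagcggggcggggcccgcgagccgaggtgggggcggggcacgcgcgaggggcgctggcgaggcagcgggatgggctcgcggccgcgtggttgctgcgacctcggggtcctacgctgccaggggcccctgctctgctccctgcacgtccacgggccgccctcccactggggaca
The TMSB10 window has 2 GGAA cores and 1 TTCC core on this strand and a GC content of 63.0%. The MAT2B window has 3 TTCC cores and a GC content of 38.0%. The PEX10 window has neither core and a GC content of 78.5%.

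Ranks of the shared regions followed the library set. The strength percentiles of the set A replicates had a Spearman correlation of 0.802 over the 16165 regions, and those of the set B replicates 0.651. Between a set A and a set B library it was 0.452 to 0.456. For width it was 0.845 within set A, 0.805 within set B and 0.523 to 0.560 between sets. The median gap in strength percentile between 2 libraries was 9.83 points within set A, 14.4 within set B and 18.99 to 19.21 between sets. For width it was 7.69, 8.11 and 15.6 to 16.4. Averaged by nearest gene, the strength correlation was 0.797 within set A, 0.643 within set B and 0.416 to 0.425 between sets. These correlations are across regions or genes, which share the same libraries and are not independent replicates, so they carry no test.

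In deposited units the median fold of the shared regions was 10.2 and 10.3 in set A against 12.05 and 10.1 in set B. The upper end differed more: the highest fold was 347 and 402 in set A against 141 and 99.96 in set B. The median covered width was 876 and 882 bp in set A against 735 and 682 bp in set B. Ranks remove such overall differences, because every library then has the same distribution.

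**Figure D1:**
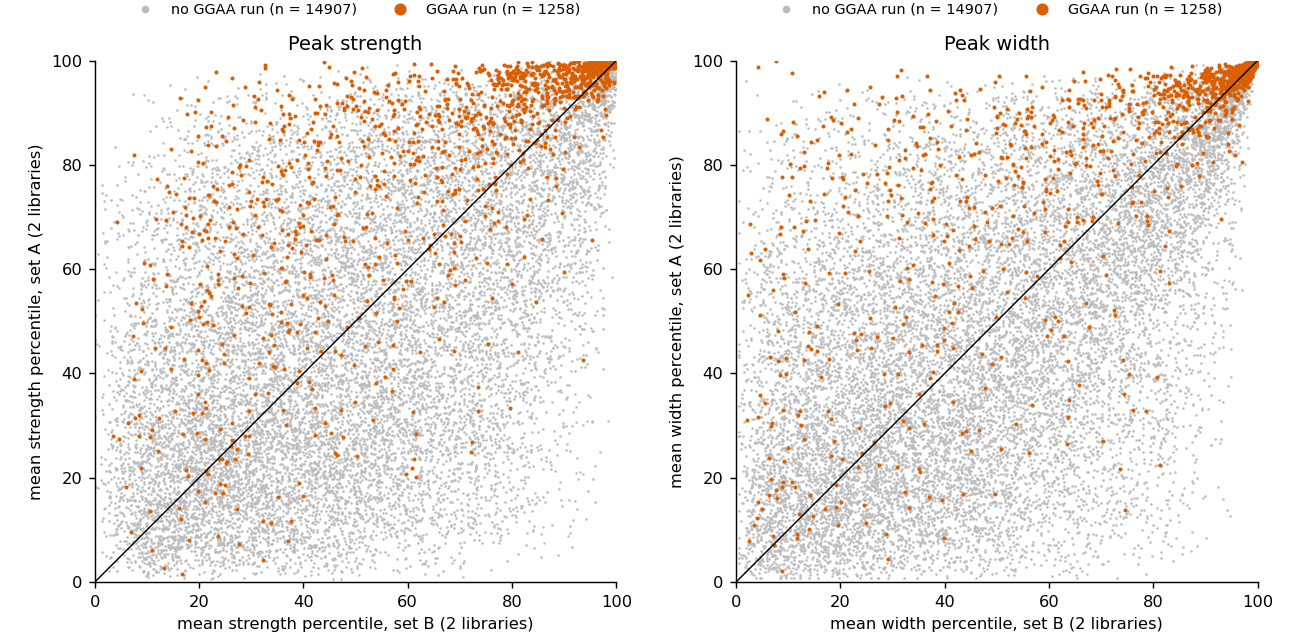
Mean percentile of each shared region in set A (vertical axis, 2 libraries) against set B (horizontal axis, 2 libraries), for strength (left) and width (right). Orange points are the 1258 regions with a GGAA run of at least 4 units within 250 bp of a summit and grey points the other 14907, and the orange points lie mostly above the line of equal rank.

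Strength rank was higher in set A at 422 regions (2.61% of 16165) and higher in set B at 321 (1.99%), by limma on normal scores of the ranks with Benjamini-Hochberg adjusted p under 0.05. Width rank was higher in set A at 856 regions (5.3%) and higher in set B at 798 (4.94%). All these regions had both libraries of one set above both of the other. Without any test, both set A libraries stood above both set B libraries at 28.4% of all regions for strength and 29.4% for width, and the reverse was true of 27.5% and 34.3%. The shift in mean strength percentile exceeded both replicate gaps at 6763 regions (41.8%), and the shift in width at 8049 (49.8%). The regions called in both measures numbered 105 toward set A, which is 24.9% of the strength calls and 12.3% of the width calls. Toward set B they numbered 53, which is 16.5% and 6.64%. Another 6 strength calls toward set A were called toward set B by width, and 0 strength calls toward set B were called toward set A by width.

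The number of calls depended on the libraries and on the test. The strength calls fell to 207 and 249 without set A replicate 1 or 2 and came to 2544 and 2469 without set B replicate 1 or 2. Which direction had more calls also changed, from 422 toward set A and 321 toward set B with all libraries to 51 and 156, and 62 and 187, without a set A replicate. Without a set B replicate they were 1621 and 923, and 1570 and 899, and with ranks over the whole lists 257 and 90. The width calls were 0 without either set A replicate and 1077 and 426 without set B replicate 1 or 2 (891 and 373 of them toward set A). With limma's variance trend and robust option off, neither measure had a call. An exact permutation of 2 against 2 libraries cannot give a p under 0.33, so no single region can pass the threshold by permutation.

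Of the 6 regions with the largest strength shift toward set A, 4 lay within 1 kb of the named gene's start, and none had a GGAA run. The region 350 bp upstream of the start of TMSB10, which encodes the actin-binding peptide thymosin beta 10, spans chr2:84904524-84906088 and overlaps an intron of TRABD2A. Its fold was 43.7 and 35.9 in set A against 4.18 and 6.05 in set B, and its percentiles were 94.9, 92.3, 1.18 and 13.5. Both set A libraries thus ranked it among their strongest regions and both set B libraries among their weakest. The shift was 86.3 points, and the normal score difference was 3.21 ± 0.49 (SE, limma adjusted p = 0.0185). A region between genes, 121559 bp downstream of the start of MAT2B (a regulatory subunit of methionine adenosyltransferase), had folds of 45.4, 33.7, 6.62 and 5.17. The region 274 bp inside KDM8, a JmjC-domain gene, had folds of 34.6, 36.5, 7.79 and 3.01. The remaining 3 were the start of PMAIP1, which encodes the proapoptotic BH3-only protein NOXA (folds 35.2, 33.9, 6.37 and 5.96), the intronic start region of UNK and H3-3B (58.0, 41.3, 7.72 and 5.46), and an intron of MTERF1, a mitochondrial transcription termination factor (16.9, 31.6, 5.49 and 4.26). The UNK region was the only one of the 6 inside an H3K27ac region.

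Toward set B, 5 of the 6 largest strength shifts were at regions with a GC content of 67.3% to 80.0%, and 4 lay within 1 kb of the named gene's start. The region 491 bp inside GLI4, a zinc-finger gene, had folds of 5.36 and 4.59 in set A against 27.1 and 26.1 in set B, a shift of -84.7 points (normal score difference -2.92 ± 0.44 SE, limma adjusted p = 0.0185). The region 10 bp upstream of TUG1, a long noncoding RNA, had folds of 5.77, 5.58, 29.8 and 32.9. PEX10, a peroxisome biogenesis gene, had folds of 5.85, 4.82, 25.5 and 27.5 at an intronic region 954 bp from its start. TIAM1, which encodes an exchange factor for the GTPase RAC, had 4.78, 4.81, 19.9 and 24.6. KRT10, a keratin of the epidermis, had 4.95, 5.58, 25.6 and 26.2 over a coding exon. The sixth region lay between genes 24529 bp upstream of COPG1, a coat protein gene, with 5.36, 3.83, 25.2 and 22.4 and a GC content of 41.7%. The rule that picked these 6 asked for both set B libraries above both set A libraries, so the gap between the sets follows from the choice.

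**Figure D2:**
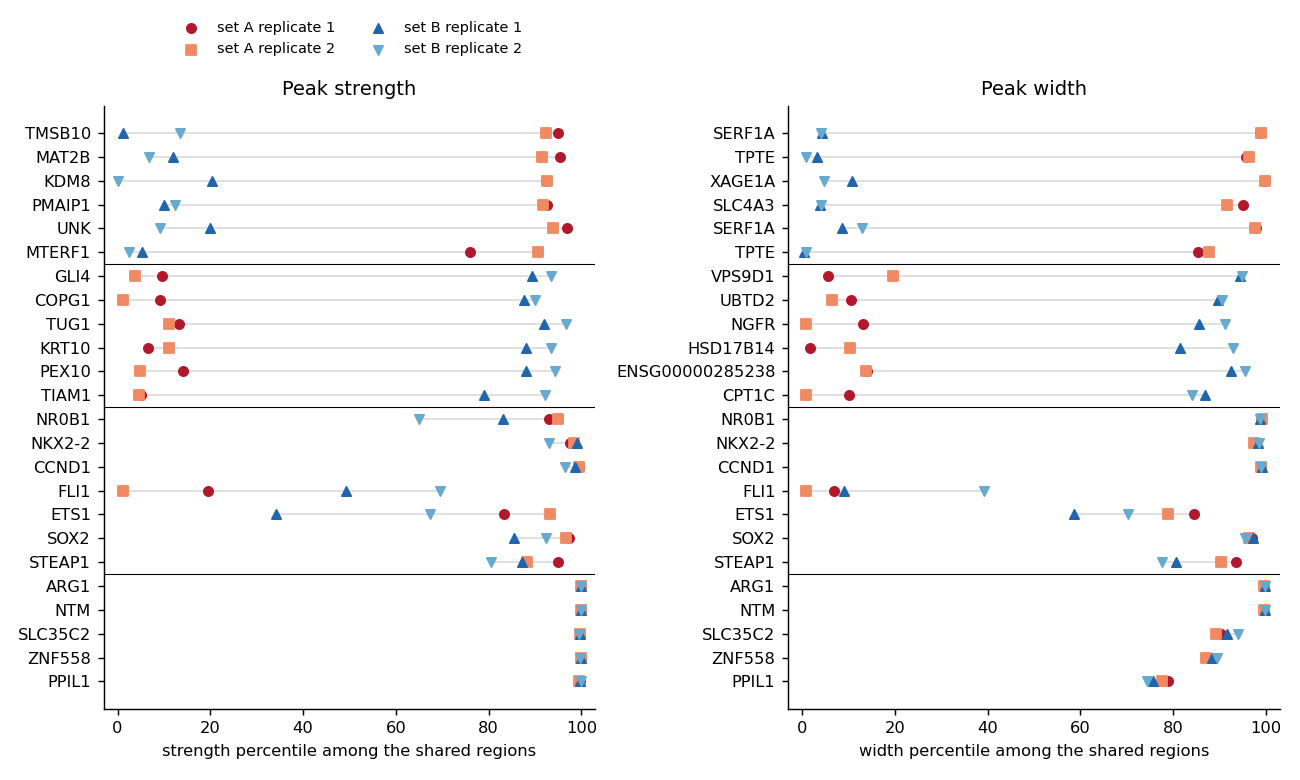
Percentile in each of the 4 libraries (points) of the regions named by rule, for strength (left) and width (right). From top to bottom, blocks hold the 6 largest shifts toward set A, the 6 largest toward set B, the best shared region of 7 known loci, and the 5 regions picked as most alike among the 100 strongest. The best region of a locus is the one with the highest mean strength percentile over the 4 libraries.

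The 6 largest width shifts toward set A were at regions covered over 1842 to 13783 bp in that set and 200 to 344 bp in the other. Here and below, 200 bp is the lowest width in every library, and regions at that width have tied ranks. The region 637 bp upstream of XAGE1A, a cancer/testis antigen gene on X, was covered over 13472 and 13783 bp in set A against 344 and 234 bp in set B, and its fold was 144 and 204 against 10.7 and 9.58. It had a GGAA run of 7 units and lay in an H3K27ac region. The 2 SERF1A regions shown above were covered over 7036, 7701, 249 and 228 bp, and over 5439, 5323, 309 and 330 bp. Their normal score differences were 3.98 ± 0.22 and 3.24 ± 0.22 (SE, limma adjusted p = 0.0161 and 0.0196). Another 2 regions lay on the short arm of chromosome 21, 2314598 and 2083583 bp from TPTE, the nearest annotated start, with 3773, 4201, 234 and 200 bp and with 1842, 2061, 200 and 200 bp. The sixth lay 109566 bp from the start of SLC4A3, an anion exchanger gene, with 3424, 2535, 243 and 228 bp. The SERF1A regions are duplicated in the genome. Whether the XAGE1A, TPTE and SLC4A3 regions also lie in duplicated or repeated sequence was not examined. Where reads of duplicated sequence were placed was not tested.

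The largest width shifts toward set B were at gene starts. The region 865 bp upstream of VPS9D1, over a coding exon of ZNF276, was covered over 243 and 469 bp in set A against 2066 and 2045 bp in set B. Its fold percentiles were 36.1, 36.2, 56.3 and 29.4, so that its strength ranks overlapped between the sets. UBTD2 had 318, 254, 1606 and 1557 bp at a region 74 bp upstream of its start. The intronic region 372 bp inside NGFR, the p75 neurotrophin receptor gene, had 368, 200, 1374 and 1611 bp. HSD17B14 had 203, 314, 1234 and 1762 bp, and CPT1C, a neuronal member of the carnitine palmitoyltransferase family, had 309, 200, 1439 and 1243 bp. The last, in an intron of CHD4 and nearest to the start of ENSG00000285238, had 380, 380, 1828 and 2161 bp.

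Of the 100 regions with the highest mean strength percentile, 47 had a GGAA run and 53 lay within 1 kb of a start. Choosing them by a mean percentile near the top leaves little room for a shift in points, and theirs ranged from -2.60 to 3.06. On the normal score scale 7 of them were called toward set A and 1 toward set B (2.61% and 1.99% of all regions). The 1 toward set B, named after its values were seen, lay in an intron of RASIP1 nearest to MAMSTR, with folds of 75.2, 68.03, 122 and 83.6. The 5 picked as most alike were nearest to ARG1, NTM, SLC35C2, ZNF558 and PPIL1. The ARG1 region, 86352 bp upstream of the start and in both an H3K27ac and an H3K9me3 region, had folds of 231, 402, 96.7 and 92.8 and percentiles of 99.97, 99.997, 99.92 and 99.98. The NTM region, in an intron of that cell adhesion gene, had folds of 301, 346, 114 and 67.04. The other 3 lay within 169 bp of a start. The normal score difference was 0.37 ± 0.25 (SE) at ARG1 and 0.45 ± 0.23 at NTM, and neither was called.

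Regions with a GGAA run ranked higher in set A, and this held for most of them singly. A run of at least 4 tandem units within 250 bp of a summit was found at 1258 shared regions (7.78%), with a median of 12 units and at most 37. Their mean strength percentile was 79.1 and 80.9 in set A against 65.1 and 65.1 in set B, a shift of 14.9 points. Both set A libraries thus gave these regions a higher mean rank than either set B library. Their median fold was 27.5, 30.9, 17.0 and 14.5. The shift was above 0 at 1042 of the 1258 regions, and both set A libraries were above both set B libraries at 775 (61.6%, against 28.4% of all regions). Strength was called higher in set A at 144 of them (11.4%, against 2.61% of all regions) and higher in set B at 2 (0.159%, against 1.99%). GGAA-run regions made up 34.1% of the strength calls toward set A and 0.623% of those toward set B.

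Over all GGAA-run regions, width gave the same direction with a smaller shift. The mean width percentile of GGAA-run regions was 82.7 and 83.9 in set A against 73.7 and 71.9 in set B, a shift of 10.5 points. Their median width was 2910, 2949, 1494 and 1350 bp. Width was called higher in set A at 234 (18.6%, against 5.3% of all regions) and higher in set B at 54 (4.29%, against 4.94%). The 302 GGAA-run regions with 1 peak in each list stood 19.9 points above all such regions in strength shift and 18 in width shift, so the shift was not limited to regions of several peaks. The median shift of all GGAA-run regions was 10.7 points for strength and 2.64 for width, below the means.

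The strength shift was similar in long and medium runs. Regions with 4 to 7 units (224) had mean strength percentiles of 66.2, 69.1, 55.9 and 56.5 and a shift of 11.5 points. Those with 8 to 11 units (320) had a shift of 16.2 points, and those with 12 or more (714) had 15.4. The 2244 regions with only 2 or 3 units had percentiles of 47.7, 47.9, 48.6 and 49.1, a shift of -1.05. No test was made between these classes. The median summit lay 222 bp from the centre of the run, and within 50 bp at 27 of 1258 regions. The windows printed above are therefore centred on the run and not on the summit.

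Among GGAA-run regions, 3 with the largest called strength shift toward set A are given here, chosen after their values were seen. The region 15891 bp upstream of RNF182, a ubiquitin ligase gene, had folds of 34.7, 39.9, 8.20 and 5.62 and percentiles of 92.4, 93.4, 23.1 and 9.69 (limma adjusted p = 0.0185). The region nearest to BCKDHB, 766183 bp from its start, had folds of 69.0, 78.0, 6.74 and 8.12. The region 153624 bp upstream of COL5A1, a fibrillar collagen gene, had 18.7, 22.3, 5.43 and 5.64. In each the sets did not overlap, as was the case for every region called by strength. The 2 GGAA-run regions called toward set B, also named after their values were seen, both had 4 units and lay on chromosome 19. The one in an intron of SPC24, a kinetochore gene, had folds of 16.4, 11.5, 34.4 and 31.6. The one in an intron of SLC27A1, nearest to PGLS, had 11.1, 7.64, 31.4 and 27.5.

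**Figure D3:**
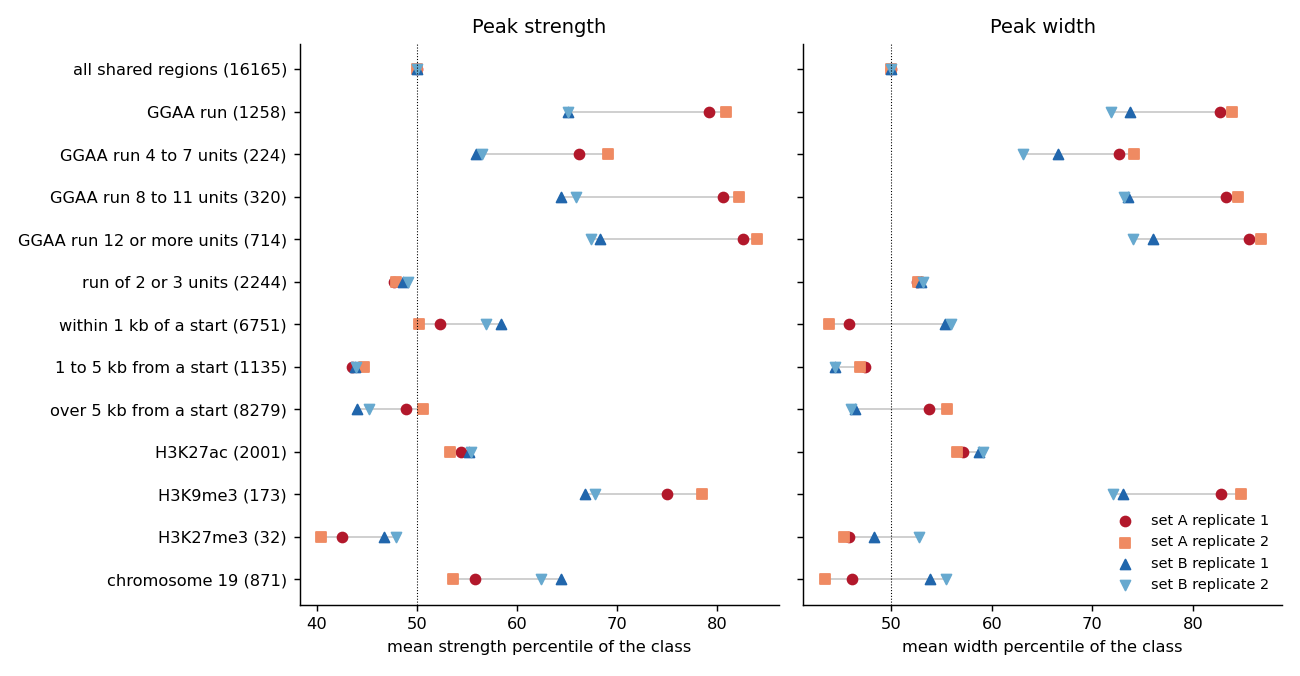
Mean percentile of each region class in each of the 4 libraries (points, with the number of regions in brackets), for strength (left) and width (right). The dotted line marks 50, the mean of all shared regions, and GGAA-run regions stand at 79.1 and 80.9 for strength in set A against 65.1 and 65.1 in set B.

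Promoter regions went the other way. The 6751 regions within 1 kb of a protein-coding start had mean strength percentiles of 52.4 and 50.2 in set A against 58.4 and 56.9 in set B, a shift of -6.37 points. Strength was called higher in set B at 230 of them (3.41%, against 1.99% of all regions) and higher in set A at 73 (1.08%, against 2.61%). Their mean width percentiles were 45.8, 43.8, 55.4 and 55.9, a shift of -10.9 points. Width was called higher in set B at 615 (9.11%, against 4.94%) and higher in set A at 84 (1.24%, against 5.3%). In both measures the sets did not overlap. The 8279 regions over 5 kb from a start had strength percentiles of 49.0, 50.6, 44.03 and 45.2 (shift 5.16) and width percentiles of 53.8, 55.5, 46.4 and 45.9 (shift 8.47). The 1135 regions in between had shifts of 0.26 and 2.73. Of the 85 GGAA-run regions within 1 kb of a start, 77.6% had a strength shift above 0 (mean 6.45 points), while the 6666 other regions there had a mean of -6.54. Width did not follow at these 85 regions: 44.7% had a shift above 0 (median -0.11), with 15 called wider in set B (17.6%) and 7 in set A (8.24%).

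GC content moved with all of these classes. Regions within 1 kb of a start had a median GC content of 64.0%, those over 5 kb away 46.0% and GGAA-run regions 44%. The strength shift was 15.3 points at regions under 40% GC, 5.30 at 40 to 50%, -2.22 at 50 to 60%, -7.62 at 60 to 70% and -10.6 at 70% and over. The width shift went from 16.9 to -16.3 over the same bins. Across regions, the Spearman correlation of GC with the shift was -0.313 for strength and -0.451 for width. With the strength percentile itself it was -0.01 and -0.08 for the set A replicates, compared with 0.26 and 0.21 for the set B replicates. With the width percentile it was -0.22 and -0.28 for the set A replicates, compared with 0.12 and 0.14 for the set B replicates. The part of GC content in the class shifts was not tested, but values within GC bins follow.

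Over 5 kb from a start, GGAA-run regions had larger strength shifts than other regions of the same GC bin. The shift was 21.4 points (366 regions) against 14.4 (1359) under 40% GC, 14.4 (492) against 4.50 (3395) at 40 to 50%, and 9.53 (231) against -2.32 (1725) at 50 to 60%. The 11 GGAA-run regions at 60 to 70% had -9.31 against -5.95 (553), the reverse order. For width the order also depended on the bin: 13.9 against 17.9 points under 40% GC, 10.9 against 9.95 at 40 to 50%, and 8.31 against 2.43 at 50 to 60%. Within 1 kb of a start, the strength shift went from 7.21 points under 40% GC (106 regions) to -10.3 at 70% and over (1491 regions). Averaged over bins, GGAA-run regions exceeded the other regions of their bin by 9.91 points in strength and 2.53 in width, and regions within 1 kb of a start differed from theirs by -2.42 and -7.46.

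**Figure D4:**
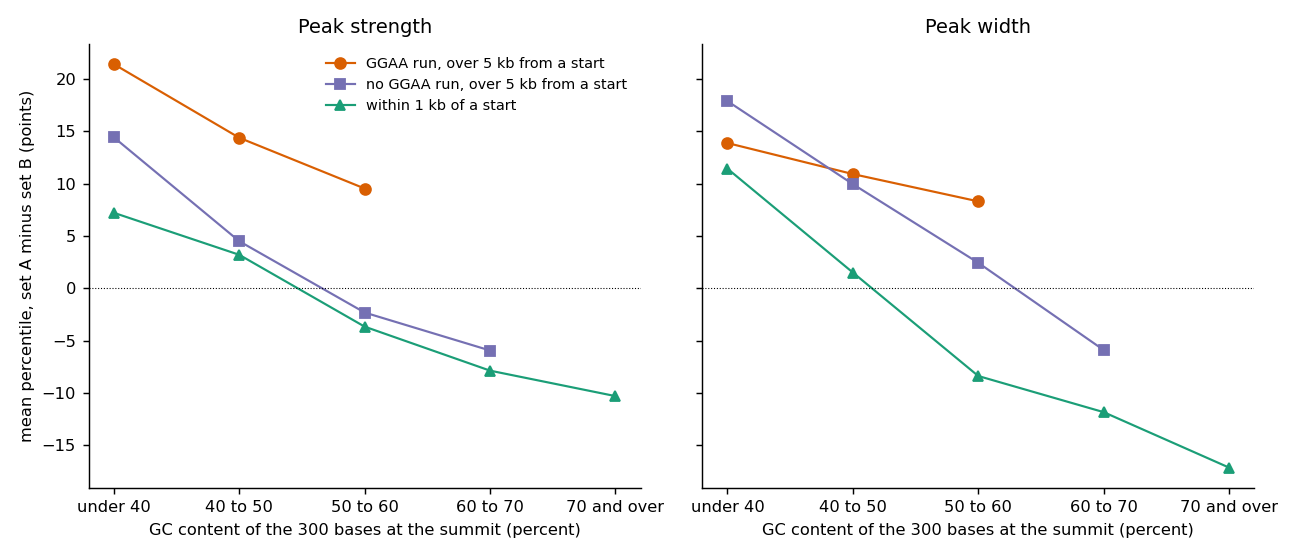
Mean shift, set A minus set B in percentile points (vertical axis), by GC content of the 300 bases at the summit (horizontal axis), for strength (left) and width (right). Lines are 3 classes of region, with bins of fewer than 20 regions left out. Of these classes, only regions within 1 kb of a start were summarised in the bin of highest GC content. Over the bins drawn, every line falls as GC content rises.

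On chromosome 19, the 871 shared regions had a median GC content of 62.0%, mean strength percentiles of 55.8, 53.6, 64.4 and 62.4, and a shift of -8.69 points. Strength was called higher in set B at 50 of them (5.74%, against 1.99% of all regions) and higher in set A at 9 (1.03%, against 2.61%). On chromosome 13, with a median GC content of 47.0%, the 306 regions had a shift of 6.60 points, with 24 called toward set A (7.84%, against 2.61%) and 2 toward set B (0.654%, against 1.99%). Chromosome 19 regions made up 15.6% of the strength calls toward set B and 5.39% of all shared regions.

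Short sequence motifs at the summit were counted in windows of 300 bases, on both strands. The GC box GGGCGG, the core site of SP factors, was in 33.5% of all shared regions, 11.4% of those called toward set A by strength and 63.2% of those called toward set B. It was in 45.0% of all 35116 RefSeq promoter windows of the same length. Among shared regions it was in 62.8% of those within 1 kb of a start and 11.3% of those over 5 kb away. Of the strength calls, 79.1% of those toward set A lay over 5 kb from a start, and 71.7% of those toward set B within 1 kb. The GC box shares of the calls were thus near those of regions at the same distance from a start. Within 1 kb of a start, regions with the GC box had a strength shift of -8.18 points and those without it -3.33. The ETS consensus CCGGAAGT was in 4.55% of all regions, 1.90% of the calls toward set A, 9.66% of those toward set B and 4.14% of promoters. Among shared regions it was in 8.68% of those within 1 kb of a start and 1.59% of those over 5 kb away. Within 1 kb of a start the strength shift was -6.43 points with this motif and -6.37 without it. Over 5 kb away it was -3.48 with it (132 regions) and 5.30 without it. The CCAAT box was in 33.1% of regions, 38.6% of the calls toward set A and 30.8% of those toward set B, and the AP-1 type motif TGANTCA was in 10.6%, 9.72% and 9.97%. GCATGCGC, the core of the NRF1 site, was in 1.92%, 0.948% and 2.49%. GGAAGGAA, a part of the repeat, was in 7.20%, 7.58% and 8.41%. These windows reach 150 bases either side of the summit, and the median summit lay 222 bp from the run centre. Many runs therefore fell outside the windows, and these shares do not measure the runs. Runs within 250 bp of a summit were at 34.1% of the strength calls toward set A and 0.623% of those toward set B. GGGCGG and CCGGAAGT both carry G and C bases, whose share differed between the groups as given above.

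The histone mark lists come from 1 set each, H3K27ac from set A and the other marks from set B. The 2001 regions in H3K27ac regions of both replicates had mean strength percentiles of 54.4, 53.3, 55.2 and 55.4, a shift of -1.46 points, and a width shift of -2.16. Over 5 kb from a start the 714 H3K27ac regions had positive shifts of 3.09 and 5.53, against 5.36 and 8.75 for the 7565 regions without the mark. Within 1 kb the 1151 H3K27ac regions had -4.10 and -7.17, against -6.84 and -11.6 without it. The 173 regions in H3K9me3 had strength percentiles of 74.96, 78.5, 66.8 and 67.8, a shift of 9.44 points, and 42 of them were called wider in set A (24.3%, against 5.3% of all regions). Of these 173 regions, 100 had a GGAA run and the median GC content was 42.7%. Set against other regions of the same GC bin, the shift of the H3K9me3 regions came to 3.33 points in strength, and to 1.85 in width from 11.3. The 73 without a run had a strength shift of 8.20 and a width shift of 16.8 points. Only 32 regions lay in H3K27me3, with a strength shift of -5.83 points and percentiles of 42.5, 40.5, 46.7 and 47.9. That direction did not hold in every setting: the shift was 1.91 with marks of either replicate and 0.221 with 1 peak in each list.

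At loci known for EWSR1::FLI1 binding, no best shared region was called, and the lowest strength percentile of any of them in any library was 65.0 (NR0B1, set B replicate 2), apart from FLI1 and ETS1. The region 2729 bp upstream of NR0B1, the nuclear receptor gene that is the best known repeat-driven target, had folds of 36.8, 48.0, 21.9 and 12.6, percentiles of 93.0, 95.03, 83.1 and 65.0, and widths of 7593, 8169, 4049 and 3938 bp. Both set A libraries ranked its strength above both set B libraries (shift 19.98 points, limma adjusted p = 0.109). Near NKX2-2, a neural transcription factor gene, the best of 6 shared regions had 9 units and folds of 64.0, 88.9, 56.9 and 25.7, and its percentiles overlapped between the sets. Near CCND1, the cyclin D1 gene, the best of 5 had folds of 127, 141, 53.1 and 32.6 and percentiles of 99.5, 99.5, 98.7 and 96.5. Near SOX2, a stem cell factor gene, the best of 5 lay 472129 bp away with 14 units and folds of 62.1, 61.3, 23.4 and 24.9. The region at STEAP1, a membrane protein gene, had folds of 43.7, 27.2, 24.8 and 16.7. TNS3 and EWSR1 were the nearest gene of no shared region.

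FLI1 and ETS1 were neighbours on chromosome 11 with opposite shifts, neither past the threshold. The only shared region nearest to FLI1 lay in its intron, 19197 bp from the start, with folds of 6.40, 3.91, 11.9 and 13.5 and percentiles of 19.4, 1.24, 49.2 and 69.6 (shift -49.1 points, limma adjusted p = 0.0964). The only one nearest to ETS1, the ETS factor named in the series title, lay 534582 bp from its start between genes. Its folds were 21.2, 39.2, 9.65 and 13.0 and its percentiles were 83.4, 93.3, 34.2 and 67.3 (shift 37.5 points, limma adjusted p = 0.0909).

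Averaged over the shared regions of each nearest gene, strength gave no call among 8869 genes in either direction (0%) by limma, with 2103 genes at an unadjusted p under 0.05 and a smallest adjusted p of 0.0677. With a gene's best region alone it gave 262 calls, and with the −log10 p in place of the fold 2334. Width rank was higher in set A at 418 genes (4.71%) and higher in set B at 723 (8.15%). Width calls per gene were 0 without either set A replicate, and 63 and 2 without set B replicate 1 or 2. Those few went the other way, with 56 and 2 toward set A and 7 and 0 toward set B. The median gene had a width shift of -3.32 points, below 0, and 42.2% of genes were above 0. Genes with several regions often held shifts of both signs: of 1494 genes with at least 3 regions, 163 had all strength shifts above 0, 110 all below 0 and 1221 both.

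Gene lists are described by their counts and medians beside those of all genes, with no test of the list. Over all genes, width was called toward set A at 4.71% and toward set B at 8.15%. Of 40 genes known to be activated by the fusion, 30 had a shared region, and their median width shift was 4.71 points against -3.32 for all genes. Width was called higher in set A at 4 (13.3%, against 4.71% of all genes) and higher in set B at 0 (against 8.15%). EZH2, the methyltransferase of Polycomb complex 2, had width percentiles of 84.2, 90.9, 46.7 and 56.6 (limma adjusted p = 0.0262). KDSR, an enzyme of sphingolipid synthesis, had 88.4, 89.03, 65.6 and 65.3 over 3 regions, and PAPPA, a metalloproteinase, had 68.9, 65.8, 44.9 and 38.5 over 14. STEAP1 had 93.6, 90.3, 80.6 and 77.6, with an adjusted p of 0.0400 by gene and 0.0568 by region. GGAA-run regions were 21.5% of the 172 regions of this list and 7.78% of all. Among 24 repressed targets, 18 had a region with a median shift of 7.84 points, and the 2 calls were collagen genes in opposite directions: COL3A1 had percentiles of 73.8, 73.0, 23.1 and 14.2, and COL1A1 35.8, 14.1, 79.3 and 79.9.

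The lists of axon guidance genes and of neural factors had median width shifts above 0. Of 18 axon guidance and adhesion genes with a region, 16 had a width shift above 0 (all genes 42.2%), the median was 13.1 points, and 3 were called toward set A (16.7%, against 4.71% of all genes) and 0 toward set B (against 8.15%). NCAM2, a neural cell adhesion gene, had percentiles of 97.2, 96.7, 33.4 and 28.3 (limma adjusted p = 0.0117), EPHA3, an ephrin receptor gene, had 65.0, 78.8, 10.6 and 10.3, and CNTN4, a contactin gene, had 60.2, 84.0, 12.4 and 28.7. Of 25 neural and neural crest factors, 5 were called toward set A (20%, against 4.71% of all genes) and 1 toward set B (4%, against 8.15%), with a median of 11.6 points. The sensory neuron factor POU4F1 had 86.7, 88.3, 45.6 and 14.6, and SOX5 had 76.5, 74.2, 42.0 and 37.4 over 5 regions. The regions of the axon guidance list had a median GC content of 44% and 8.46% of them lay within 1 kb of a start, against 53.0% and 41.8% of all regions.

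Zinc-finger genes of chromosome 19, many of them KRAB repressors in clusters, had median shifts below 0. Of 246 such genes, 111 had a shared region, and 89.1% of their 129 regions lay within 1 kb of a start. The median width shift was -11.0 points and the median strength shift -11.6, with 85 and 80 of 111 below 0. Width was called higher in set B at 12 (10.8%, near the 8.15% of all genes) and higher in set A at 1 (0.90%, against 4.71%). ZNF791 had width percentiles of 1.70, 5.32, 80.1 and 48.1, and ZNF224 had 3.58, 2.83, 50.4 and 71.5. ZNF460 went apart in the 2 measures, with strength percentiles of 75.3, 80.9, 45.9 and 31.1 and width percentiles of 12.6, 29.9, 73.3 and 69.3. Their regions had a median GC content of 62.0%.

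The BAF, Polycomb, proteasome and ribosomal protein lists had median width shifts of -3.08 to 0.004 points, near the -3.32 of all genes. Their median strength shifts spread more, against -1.32 for all genes. They were -11.1 points for proteasome, -7.54 for cytosolic ribosomal, -1.33 for mitochondrial ribosomal, 0.32 for BAF and 3.71 for Polycomb genes. The counts of calls that follow are small and stand beside 4.71% of all genes toward set A and 8.15% toward set B. Of 22 BAF remodelling genes, 1 (4.55%) was called wider in set A (SMARCE1, percentiles 58.3, 63.5, 4.26 and 5.93) and 3 (13.6%) in set B (BRD7, BRD9 and ARID1B). Of 21 Polycomb genes, 2 (9.52%) were called toward set A, among them EZH2, and 4 (19.05%) toward set B. RBBP7, a histone-binding subunit, had the largest of these shifts, with 18.4, 7.44, 85.3 and 84.2 (limma adjusted p = 0.0165), while its strength percentiles were 88.3, 80.6, 80.8 and 87.4 and overlapped. Of 16 ETS family genes 1 was called, ETV2, toward set B (86.5, 84.2, 94.2 and 94.0). Of 10 cyclin and kinase genes (median -9.19) 1 was called, CDK9, toward set B (76.5, 75.6, 93.7 and 94.2). None of 22 proteasome genes and none of 5 FET family or fusion partner genes (median -12.4) was called in either direction by limma. Cytosolic ribosomal protein genes (49) had 2 calls in each direction, among them RPL7 toward set A (83.9, 85.7, 24.0 and 6.12) and RPS7 toward set B (0.72, 0.78, 33.7 and 35.8). Mitochondrial ribosomal protein genes (48) had 2 toward set A and 1 toward set B. Of 13 neuropeptide genes, CCKAR was called toward set A (68.1, 42.1, 2.12 and 2.65) and 2 toward set B, and of 10 surface antigen genes STEAP1 was the only call.

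**Figure D5:**
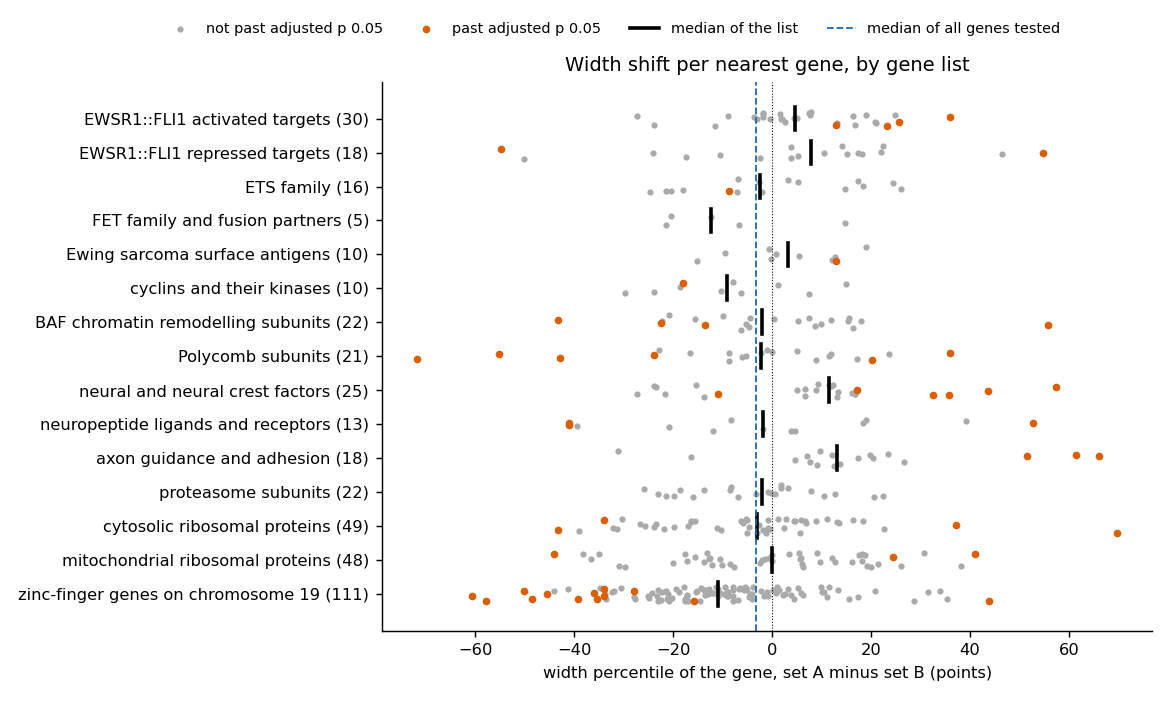
Width shift of each gene with a shared region (points, horizontal axis, set A minus set B in percentile points) by gene list (vertical axis, number of genes in brackets). Black bars are list medians and the dashed line is the median of all 8869 genes at -3.32, with medians of 13.1 for axon guidance and adhesion and -11.0 for zinc-finger genes on chromosome 19.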

How the data were processed

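CUT&RUN peaks of FLI1 in TC-32 cells were taken from the authors' 4 deposited narrow-peak lists, 1 for each library, with replicates not pooled. In these lists the authors' caller gives for each peak a fold (a ratio over control) and the −log10 of its p-value and q-value, per the file headers and columns. Deposited lists of H3K27ac, H3K9me3 and H3K27me3 were used for positions only. Per the submitters' processing notes, cutadapt 4.4, Bowtie2, Picard 2.17.11, MACS2 2.1.1 and hg38 were used; settings are not given in the sources used here. Fold and p depend on depth and control, so shifts and tests used only ranks within a list. Deposited folds and widths are printed as description.

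Peaks of the 4 lists were merged, and regions with at least 1 base of each list were kept. Genes and exons came from GENCODE release 44, with the nearest protein-coding start as a region's gene. GGAA runs were tandem units of GGAA or TTCC, at least 4 within 250 bp of a summit in any list, counted in full. GC content covered 300 bases at the second of the 4 ordered summits. Promoter windows for motif shares came from RefSeq (GRCh38.p14).

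Normal scores of ranks were compared between sets, 2 libraries against 2, with limma 3.58.1 (trend and robust) in R 4.3.3, with Benjamini-Hochberg adjustment over all regions or all genes. The fit was tested on simulated data for the strength ranks of 16165 regions: 29 of 50 regions with a shift of 2 normal score units were recovered, and 1 of 50 with a shift of 1, with 0 false calls. For width 33 and 8 of 50 were recovered, with 1 false call. The simulated noise was normal and had the same spread in both sets. In the real libraries the median gap in strength percentile was 14.4 points in set B and 9.83 in set A. The false calls of the simulation therefore do not measure those in the real data. Classes, motifs, correlations and gene lists are descriptions with no test.

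Regions were named by rule: the 6 largest called, non-overlapping shifts in each direction and measure, the best region of 9 loci, the 5 most alike of the 100 strongest regions, and at most 4 called genes of each of 15 lists. Sequences of repeat regions were centred on the run. The regions compared and the lists were chosen with earlier results of these data known. Alternatives covered the rank scale, the limma settings, a replicate block, each library left out, region filters and the measure used. Peaks on Y and the IgG libraries were not analysed here.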

Additional observations from a re-analysis of the deposited data

Results flagged for a closer look

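Some classes of region ranked above the other regions in both libraries of one set and below them in both libraries of the other. The contrast is the mean percentile of the class minus that of all other regions, and how the sets differ in it was not tested. For width, regions within 1 kb of a start stood -7.2 and -10.7 points from the others in set A against 9.25 and 10.2 in set B, a difference of -18.6. Regions over 5 kb from a start stood 7.74 and 11.3 points in set A against -7.43 and -8.31 in set B, a difference of 17.4. Nearly all regions belong to one of these classes, so the 2 contrasts are not independent.

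Base composition gave the same kind of split. For strength the difference was 17.5 points at regions under 40% GC (6.96, 9.88, -10.2 and -7.88 in set A replicates 1 and 2 and set B replicates 1 and 2), -2.93 at 50 to 60% and -11.8 at 70% and over. For width it was 19.2 under 40% GC, 12.8 at 40 to 50%, -14.2 at 60 to 70% and -18.2 at 70% and over. GGAA-run regions are not among them, since they ranked above the other regions in all 4 libraries.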

How the results depend on the processing

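The counts of calls depended on the settings more than the class shifts did, and unless the construction shows it the cause was not tested. Strength per region (743 calls) gave 0 with untransformed percentiles and with limma without trend and robust, 347 with ranks over the whole list, 420 at regions with 1 peak in each list, 82 at regions covered at least 50% by each list and 4816 with the −log10 p. With each library left out it gave 207 to 2544. Width per region (1654) gave 902 with untransformed percentiles, 0 without trend and robust, 1049 with 1 peak in each list, 7 with at least 50% covered, 975 with the widest peak and 0 to 1077 with each library left out. Strength per gene (0) gave 1 with ranks over the whole list, 21 with 1 peak in each list, 49 in the 50% of regions with the higher mean strength, 2334 with the −log10 p, 262 with the best region only, 20 within 50 kb and 0 to 752 with each library left out. Width per gene (1141) gave 444 without trend and robust, 1 with at least 50% covered, 728 within 50 kb and 0 to 63 with each library left out.

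With the replicate block, strength gave 1302 calls per region and 724 per gene, and width 1900 and 1082. Across regions, replicates of the same number in the sets did not deviate together (correlation 0.001 for strength and -0.005 for width). This cannot tell whether they shared a culture or a day, which the labels do not give.

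Every class shift of GGAA-run regions and of regions within 1 kb of a start kept its direction under the alternatives run. For GGAA-run regions strength was 18.7 with the −log10 p, 9.91 against the same GC bin and 19.9 with 1 peak in each list (the GC and single-peak settings were chosen after seeing the data), and width was 2.53 and 18 in those last settings. Near starts, strength was -10.6 with the −log10 p and -2.42 against the same GC bin, and width -7.46. H3K27ac regions turned to 3.09 and 5.53 over 5 kb from a start. H3K27me3 regions (32) turned to 1.91 in strength and 1.34 in width with marks of either replicate, to 1.52 in width over 5 kb from a start, and to 0.221 and 3.05 with 1 peak in each list.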
